A study of Rattus norvegicus with 14 samples.

Results

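Collagens are the structural proteins of connective tissue and of the sheets on which epithelia rest. Their chains wind around each other into a helix, are hydroxylated and folded in the endoplasmic reticulum, and after secretion are trimmed and crosslinked. Fibrillar collagens form the ropes of the stroma, type IV collagen forms the network of basement membranes, and other types decorate fibrils, form beaded filaments or sit in the cell membrane. In the epididymis, a single coiled duct in which spermatozoa leaving the testis mature and are stored, collagens lie in the basement membrane under the epithelium, around the smooth muscle of the duct wall and in the tissue between its loops.

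Collagen genes were taken as all genes whose only symbol in the array annotation was Col, a number, the letter a and a number. There were 36 such genes among the 18166 with a single symbol, 11 of them fibrillar, 8 of basement membranes and 17 of other types. Measurements came from pools of entire epididymides of Sprague-Dawley rats at 7, 18, 28 and 60 days of age, with 3, 4, 4 and 3 pools and 1 RatGene 2.0 ST array per pool; the labels name no agent or mutation. The younger animals, up to day 18, were kept with lactating mothers and the older ones fed freely; how many animals made up a pool was not given in the labels. Whether the pools of an age came from separate litters is not given either, so p-values measure the spread between pools only. The labels speak of total epididymal cells, but the RNA was extracted from frozen tissue. Each value mixes all cell types of the organ, and fewer cells of a type and less RNA per cell cannot be told apart.

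Values are log2 signals, so a difference of 1 is 2-fold. A background level of 4.86 was set from 226 olfactory and vomeronasal receptor genes (their 95th percentile). By this measure 34 of the 36 collagens lay above background at day 7 and 33 at each later age. Col10a1 and Col19a1 lay at or under it at every age. Col26a1 passed it only at day 7. At the other end Col1a1 lay close to the top of the scale, with 21 to 94 clusters of an array above it and the brightest cluster at 13.63 to 13.81. Signals of different genes come from different probes and are not compared as amounts.

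Pools of 1 age correlated at 0.989 to 0.995 over all genes tested, which are not independent replicates. Replicate 2 of day 28 stood apart from its group: on the third principal component, which held 6.07% of all variance, it scored 25.2 and the other day 28 pools 14.2 to 15.9. The gap was wider on the fourth component, which held 2.66%. There this pool scored 23.9 and the other day 28 pools -15.7 to -8.3. Of 12 epithelial markers 10 were higher at day 60 than at day 7, 1 was lower (Epcam, -0.33, adjusted p = 0.00626) and Krt18 was not called. Their summed log2 level, to which the secretory genes Lcn5 and Adam7 add most at day 60, went from 12.02 to 12.26 at day 7 up to 15.17 to 15.21 at day 60. Of the 12, Crisp1, Adam7 and Rnase9 were not above background at day 7. From day 18 on all 12 were above background.

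Of the 36 collagens 28 differed among the 4 ages (limma's F test over all genes, adjusted p under 0.05), or 77.8%, against 60.4% of all genes. Of the 18166 genes 13385 had a mean over the 14 arrays above background, and of the 36 collagens 33 or 34 did at each age. The shares of all genes, here and below, thus include more genes at background. Shares among genes above background were not worked out. Of the 3 steps between neighbouring ages, the first (day 7 to day 18) had 19 falls and 4 rises among the collagens. The second (day 18 to day 28) had 1 fall (Col6a6) and 6 rises. The third (day 28 to day 60) had 16 falls and 3 rises. The step from day 18 to day 28 had 29 of 36 collagens not past the test. Most genes did not pass at that step, as 24.7% of all genes were called in either direction. The most common orders were a fall, no call and a fall (8 genes, among them Col1a1, Col1a2, Col3a1 and the type V chains) and no call at any step (8 genes). The heat map of all 36 genes shows these orders pool by pool.

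**Figure D1:**
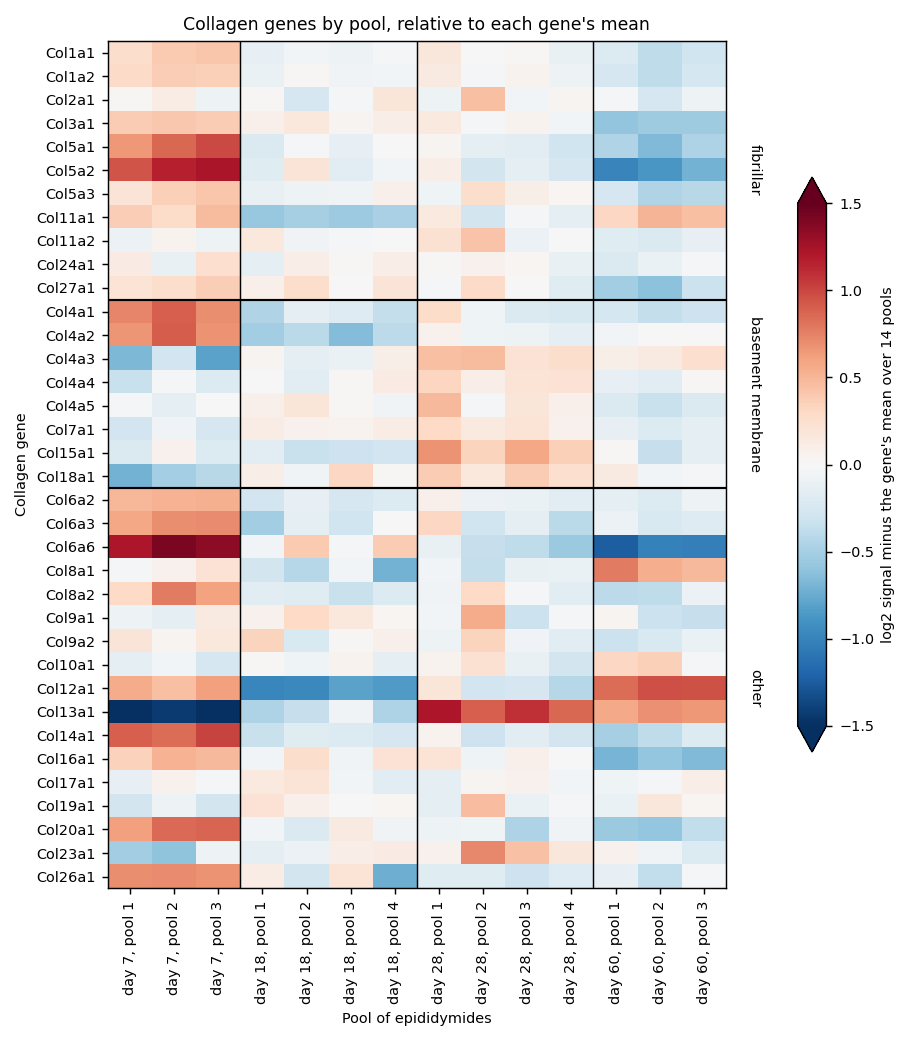
Each row is a collagen gene, each column a pool, and the colour is the log2 signal minus that gene's mean over 14 pools; black lines part the ages and the classes. Fibrillar rows such as Col5a2 run from red at day 7 to blue at day 60, Col13a1 runs the other way, and Col12a1 is lowest in the 4 day 18 pools.

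The first comparison asks which collagens changed between day 7 and day 18, while the pups were with their mothers. Between these ages 19 of 36 collagens fell and 4 rose, where 20.7% of all genes fell and 17.4% rose (38.1% in either direction). The median collagen difference was -0.32 and the median of all genes 0.01. Of the fibrillar collagens 7 of 11 fell and 0 rose (limma; 0 also at an unadjusted p under 0.05). Of the basement membrane collagens 3 of 8 rose and 2 fell. Of the other types 10 of 17 fell and 1 rose.

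Type I collagen, the main rope-forming collagen, is built of the products of Col1a1 and Col1a2. Col1a1 read 13.05, 13.18 and 13.20 in the day 7 pools, 12.66, 12.75, 12.72 and 12.76 in those of day 18, 12.96, 12.78, 12.81 and 12.68 in those of day 28 and 12.58, 12.41 and 12.49 in those of day 60. Log2 signals of Col1a2 were 12.87, 12.95 and 12.94 in the day 7 pools; those of day 18 had 12.47, 12.60, 12.52 and 12.54, those of day 28 12.71, 12.55, 12.63 and 12.50 and those of day 60 12.32, 12.20 and 12.32. In both genes the 3 day 7 pools lay above all later pools, and the day 60 pools lay below all others. Col1a1 fell by 0.42 ± 0.079 (log2 difference ± SE, adjusted p = 0.000621) and Col1a2 by 0.38 ± 0.072 (adjusted p = 0.000596) from day 7 to day 18. Col3a1, whose product makes the thin fibrils of soft organs, fell by 0.29 ± 0.067 (adjusted p = 0.00278), but with the table quantile normalized again by 0.18 (adjusted p = 0.0517).

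The type V chains take part in setting the diameter of type I fibrils. At day 7 Col5a2 lay at 9.90, 10.12 and 10.18, with 8.78, 9.16, 8.80 and 8.91 by day 18, 9.06, 8.68, 8.81 and 8.70 by day 28 and 7.96, 8.09 and 8.25 by day 60. Day 7 was higher than every other age, the day 18 and day 28 pools overlapped, and the day 60 pools were the lowest. Col5a2 fell 2.22-fold from day 7 to day 18 (adjusted p = 2.11e-06), Col5a1 fell 1.9-fold and Col5a3 1.28-fold. Col5a1 has a second cluster on the array, which went from 8.45 ± 0.12 to 7.33 ± 0.068 (mean ± SD, 3 and 4 pools), while the cluster used here went from 9.11 ± 0.17 to 8.19 ± 0.094.

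Col11a1, a chain of the type XI collagen found at the core of fibrils in cartilage and at low levels elsewhere, went down and came back. For Col11a1 the pools of day 7 gave 7.04, 6.95 and 7.15, of day 18 6.11, 6.17, 6.13 and 6.19, of day 28 6.82, 6.39, 6.64 and 6.52 and of day 60 6.99, 7.18 and 7.13. The day 18 pools were the lowest, with no overlap with any other age, and the day 7 and day 60 pools overlapped. The fall to day 18 was 1.86-fold (adjusted p = 3.26e-06). The 4 fibrillar collagens not past the test at this step were Col2a1 (-0.03), Col11a2 (0.05), Col24a1 (-0.07) and Col27a1 (-0.15). Col2a1 is the main collagen of cartilage.

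**Figure D2:**
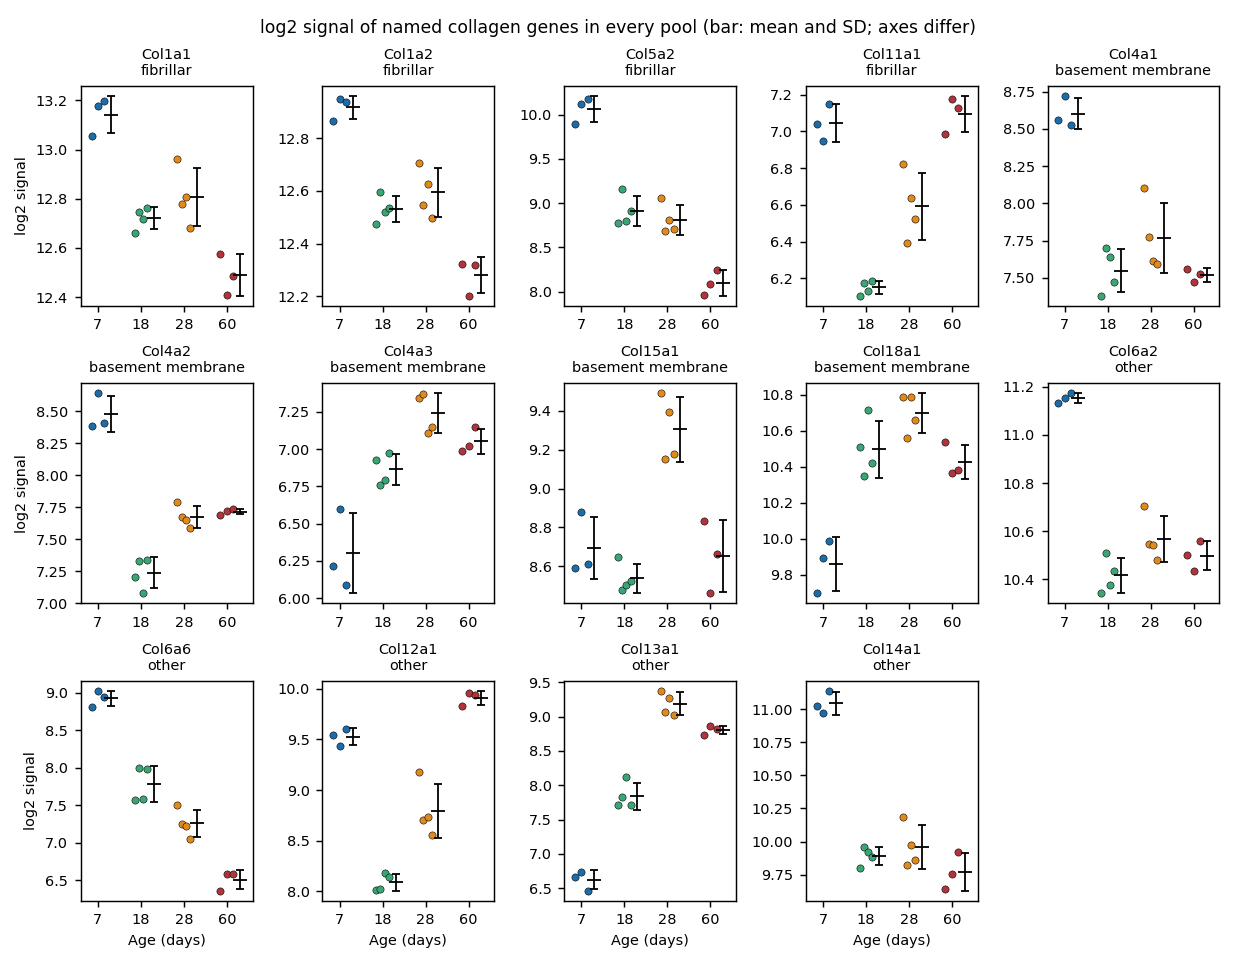
Every pool's log2 signal is plotted against age in days for 14 collagens, with the mean and SD beside the points; the axes differ between panels. Col5a2 and Col6a6 drop from day 7 to day 60, Col13a1 climbs to day 28, Col15a1 peaks at day 28, and Col11a1 and Col12a1 have their lowest values at day 18.

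Basement membrane collagens split at this step. The common type IV network is made of the products of Col4a1 and Col4a2, which are widespread in vessels and around muscle, while the chains of Col4a3, Col4a4 and Col4a5 form a network restricted to certain epithelia. The type IV genes lie in head-to-head pairs. In RefSeq (build GRCr8) the starts of Col4a1 and Col4a2 lie 77 bases apart on chromosome 16, those of Col4a3 and Col4a4 413 bases apart on chromosome 9, and those of Col4a5 and Col4a6 1415 bases apart on chromosome X. The stretches shared by the promoter windows of both genes (250 bases before to 50 after each start) are shown because the members of these pairs are compared here; Col4a6 had no cluster with a single symbol. Both are given on the + strand, and capitals mark GGGCGG and CCAAT on either strand (CCGCCC and ATTGG).
Col4a1 and Col4a2, chr16:84885471-84885646: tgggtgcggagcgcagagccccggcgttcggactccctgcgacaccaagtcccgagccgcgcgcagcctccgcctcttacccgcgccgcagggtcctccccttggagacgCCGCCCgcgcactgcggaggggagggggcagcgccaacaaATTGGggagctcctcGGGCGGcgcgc
Col4a3 and Col4a4, chr9:91323740-91323827: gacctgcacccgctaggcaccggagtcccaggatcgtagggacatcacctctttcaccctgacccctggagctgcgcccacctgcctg
The Col4a1 and Col4a2 stretch holds 1 CCAAT motif on the - strand, which begins 24 bases after the Col4a1 start and 105 bases before the Col4a2 start as that gene is read. It also holds a GC box on each strand. The Col4a3 and Col4a4 stretch holds neither motif. Among 33469 rat promoter windows of 300 bases 37.5% held CCAAT and 33.1% held GGGCGG. Of the 36 collagens 30 had a window, and Col1a1 and Col3a1 were among those without. Of the 30 collagen windows 8 held CCAAT and 18 held GGGCGG. The median share of G and C bases was 60.5% in the collagen windows and 51.67% in all windows. The part of base composition in these counts was not tested. The overlapping windows of Col4a1 and Col4a2 both count. A match describes letters only.

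Both genes of the first pair fell to day 18. Col4a1 read 8.56, 8.72 and 8.52 in the day 7 pools, 7.38, 7.70, 7.64 and 7.47 in those of day 18, 8.10, 7.77, 7.61 and 7.59 in those of day 28 and 7.56, 7.47 and 7.52 in those of day 60. Log2 signals of Col4a2 were 8.39, 8.64 and 8.41 in the day 7 pools; those of day 18 had 7.20, 7.33, 7.08 and 7.33, those of day 28 7.79, 7.67, 7.65 and 7.58 and those of day 60 7.69, 7.72 and 7.73. Both genes were highest in the day 7 pools, with no overlap with later ages. Col4a1 fell 2.08-fold (adjusted p = 4.67e-06) and Col4a2 fell 2.37-fold (adjusted p = 4.45e-08). Col4a3, of the second pair, moved the other way. At day 7 Col4a3 lay at 6.21, 6.60 and 6.09, with 6.93, 6.76, 6.79 and 6.98 by day 18, 7.34, 7.37, 7.11 and 7.15 by day 28 and 6.99, 7.02 and 7.15 by day 60. Its day 7 pools were below all others, and the step to day 18 was a 1.48-fold rise (adjusted p = 0.00121). Its partner Col4a4 differed by 0.18 ± 0.094 (adjusted p = 0.162), and Col4a5 by 0.12 ± 0.11 (adjusted p = 0.434).

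Col18a1 and Col15a1 encode the large basement membrane collagens that carry sugar chains, and fragments of the former act on vessels as endostatin. For Col18a1 the pools of day 7 gave 9.70, 9.89 and 9.99, of day 18 10.51, 10.35, 10.71 and 10.42, of day 28 10.79, 10.56, 10.79 and 10.66 and of day 60 10.54, 10.36 and 10.38. Its day 7 values lay below those of all other ages, and Col18a1 rose 1.56-fold to day 18 (adjusted p = 0.000151). Col7a1, of the fibrils that anchor epithelia to the stroma, rose 1.21-fold (adjusted p = 0.0109). That call ended without replicate 1 of day 7 (adjusted p = 0.0603) and with arrays centred on their medians (adjusted p = 0.0635).

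Among the other types the fibril-associated collagens, which lie on the surface of type I fibrils, had the largest fall of the step in Col12a1. Col12a1 read 9.55, 9.44 and 9.60 in the day 7 pools, 8.01, 8.03, 8.18 and 8.14 in those of day 18, 9.17, 8.70, 8.74 and 8.56 in those of day 28 and 9.83, 9.96 and 9.94 in those of day 60. The 4 day 18 pools were all lower than every pool of another age, and the fall to day 18 was 2.71-fold (adjusted p = 1.9e-07). Log2 signals of Col14a1 were 11.03, 10.97 and 11.14 in the day 7 pools; those of day 18 had 9.80, 9.96, 9.92 and 9.88, those of day 28 10.19, 9.82, 9.97 and 9.86 and those of day 60 9.64, 9.75 and 9.92. Col14a1 was higher in the 3 day 7 pools than in all others, whose ages overlapped, and fell 2.23-fold to day 18 (adjusted p = 2.7e-07). Col16a1 fell 1.28-fold and Col20a1 1.76-fold. Col9a1, Col9a2 and Col19a1 did not pass the test, with differences of 0.17, -0.08 and 0.29.

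The 3 measured chains of type VI collagen, which forms beaded filaments around cells, all fell. At day 7 Col6a2 lay at 11.13, 11.16 and 11.17, with 10.34, 10.51, 10.38 and 10.44 by day 18, 10.71, 10.55, 10.54 and 10.48 by day 28 and 10.50, 10.44 and 10.56 by day 60. Day 7 values of Col6a2 lay above all others and the later ages overlapped. The fall to day 18 was 1.67-fold (adjusted p = 1.64e-06), and that of Col6a3 was 1.87-fold. For Col6a6 the pools of day 7 gave 8.81, 9.01 and 8.94, of day 18 7.56, 7.99, 7.58 and 7.98, of day 28 7.50, 7.25, 7.22 and 7.05 and of day 60 6.36, 6.58 and 6.58. For Col6a6, a chain found in fewer tissues, no 2 neighbouring ages overlapped, and the fall to day 18 was 2.21-fold (adjusted p = 5.19e-06).

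Col13a1 encodes a collagen anchored in the cell membrane and had the largest rise. Col13a1 read 6.67, 6.74 and 6.47 in the day 7 pools, 7.71, 7.83, 8.11 and 7.71 in those of day 18, 9.38, 9.07, 9.27 and 9.03 in those of day 28 and 8.74, 8.86 and 8.82 in those of day 60. No 2 ages overlapped, with day 7 the lowest and day 28 the highest. Col13a1 rose 2.32-fold to day 18 (adjusted p = 8.65e-07). The other membrane collagens, Col17a1 of hemidesmosomes and Col23a1, differed by 0.06 and 0.40 (adjusted p = 0.673 and 0.0572). Col8a2 and Col8a1, of the short-chain collagens that form lattices, fell 1.72-fold and 1.36-fold. The Col8a1 call (adjusted p = 0.0179) ended without replicate 3 of day 7 (adjusted p = 0.0784) or replicate 4 of day 18 (adjusted p = 0.0508). Col26a1 fell from 5.23 ± 0.019 at day 7 to values not above background, which makes it at least 1.28-fold lower (adjusted p = 0.000927).

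Markers of other cell types moved at this step. Of 10 fibroblast markers 8 fell and 0 rose (1 rose at an unadjusted p under 0.05), and their summed log2 level went from 13.99 to 14.18 down to 13.32 to 13.55. Mesothelial markers fell in 5 of 5, with sums of 10.58 to 11.10 at day 7 and 8.83 to 9.14 at day 18. Smooth muscle markers fell in 5 of 8 and endothelial markers in 5 of 7. Of 12 epithelial markers 11 rose, to sums of 13.55 to 13.71. Adipocyte markers rose in 3 of 5, with sums of 7.74 to 8.10 at day 7 and 8.50 to 9.66 at day 18, and Adipoq rose 6.39-fold (adjusted p = 6.3e-05). Apart from Crisp1, Adam7 and Rnase9 at day 7 and Lep at both ages, none of the markers in these 6 lists was at or under background. Their part in the falls and rises of collagens was not tested.

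**Figure D3:**
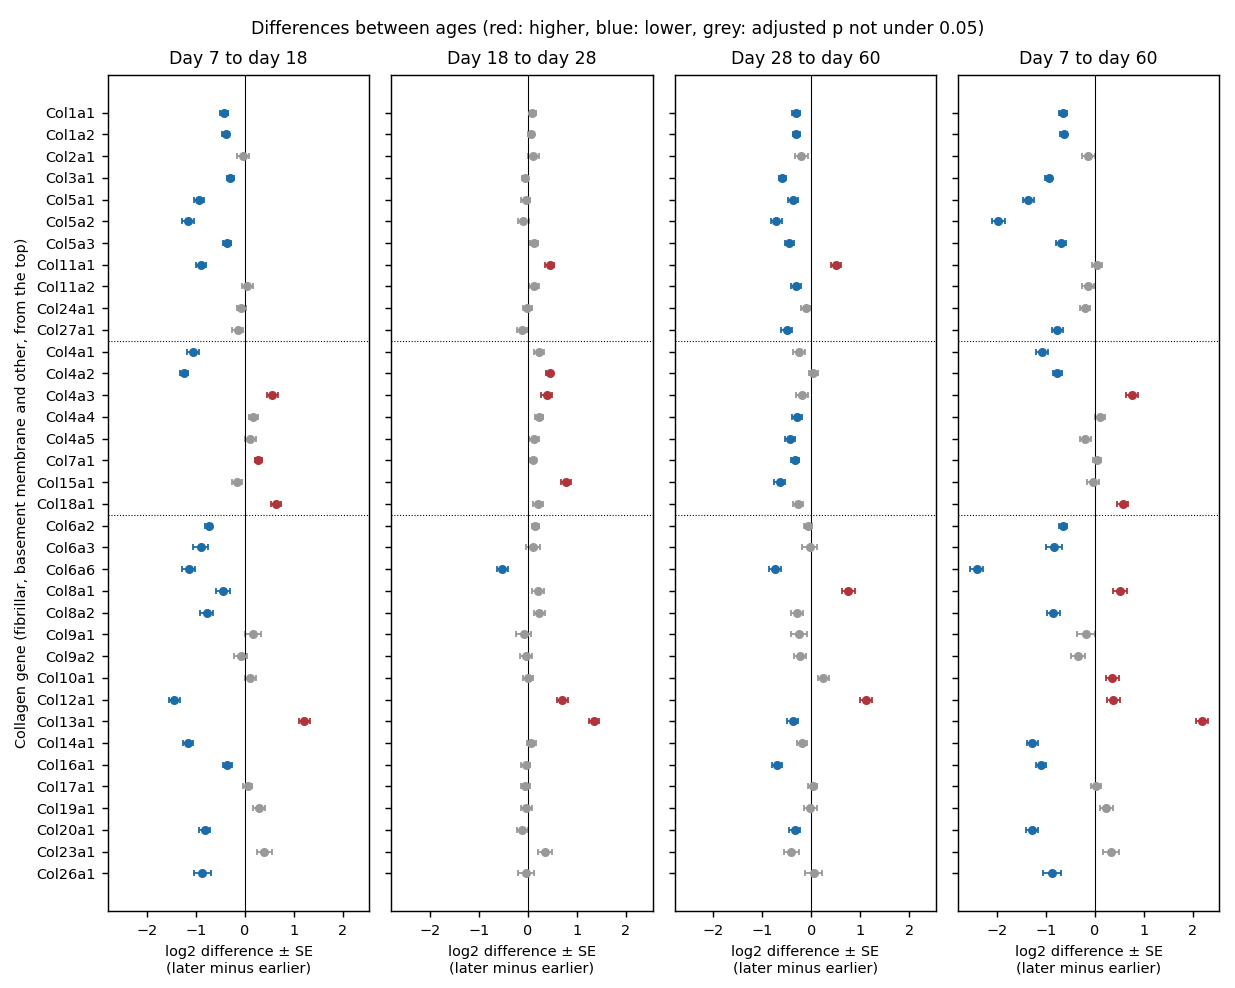
Points are log2 differences (later minus earlier age) with their SE for each of the 36 collagens, in panels for the 3 steps and the whole span; dotted lines part fibrillar, basement membrane and other collagens. Blue points (lower) number 19 from day 7 to day 18, 16 from day 28 to day 60 and 17 over the whole span. The panel from day 18 to day 28 is mostly grey, at a step where 24.7% of all genes were called.

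From day 18 to day 28, 6 of 36 collagens rose and 1 fell (16.7% and 2.78%). Of all genes 10.5% rose and 14.3% fell (24.7% in either direction). Among all called genes 42.3% were higher, and 31.7% with arrays centred on their medians; the 6 and 1 collagens were the same counts under that centring. The median collagen difference was 0.10 against -0.02 for all genes. The genes that rose were Col11a1, Col12a1, Col13a1, Col15a1, Col4a2 and Col4a3, and Col6a6 fell.

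Col13a1 rose a second time, 2.55-fold (adjusted p = 3.75e-07). Col15a1, which had differed by -0.16 in the step before, rose 1.7-fold (adjusted p = 6.65e-05). Log2 signals of Col15a1 were 8.59, 8.88 and 8.61 in the day 7 pools; those of day 18 had 8.65, 8.48, 8.50 and 8.52, those of day 28 9.49, 9.15, 9.40 and 9.18 and those of day 60 8.83, 8.46 and 8.67. The 4 day 28 pools were above every pool of the other ages, which overlapped with each other. Col12a1 rose 1.63-fold (adjusted p = 0.000247) and Col11a1 1.36-fold (adjusted p = 0.00201). Col12a1 was highest in replicate 1 of day 28, at 9.17, and the other day 28 pools read 8.56 to 8.74.

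In the basement membrane class 3 of 8 rose and 0 fell (limma; 4 and 0 at an unadjusted p under 0.05). Col4a2 rose 1.35-fold (adjusted p = 0.00108), and Col4a1 differed by 0.22 ± 0.11 (adjusted p = 0.16). Col4a3 rose 1.3-fold (adjusted p = 0.0178). This call ended without replicate 2 of day 28, the pool that stood apart (adjusted p = 0.0513), and without replicate 2 of day 18 (adjusted p = 0.0547).

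Of the fibrillar class 10 of 11 did not pass. Col1a1, Col1a2 and Col3a1 differed by 0.09, 0.06 and -0.06, and Col5a2 by -0.10. Col6a6 fell 1.44-fold (adjusted p = 0.00494). Over the same step 7 of 8 smooth muscle markers rose, with sums of 12.45 to 12.78 at day 18 and 13.09 to 13.38 at day 28, and 3 of 7 endothelial markers rose. Mesothelial markers fell in 5 of 5, to sums of 7.76 to 8.15. Of the fibroblast markers 4 of 10 rose and 1 fell, and 2 of 5 adipocyte markers rose. The part of these cell types in the collagen differences was not tested.

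From day 28 to day 60, the step in which sperm reach the duct, 16 of 36 collagens fell and 3 rose, where 11.2% of all genes fell and 13.8% rose (25% in either direction). The count of falls depended on scaling: with arrays centred on their medians it was 10, and the share of higher genes among all called genes went from 55.2% to 71.7%. The median collagen difference was -0.28, against -0.02 for all genes. Of the fibrillar collagens 8 of 11 fell and 1 rose. Of the basement membrane collagens 4 of 8 fell and 0 rose (limma; 0 also at an unadjusted p under 0.05). Of the other types 4 of 17 fell and 2 rose.

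Col5a2 had the largest fibrillar fall, 1.64-fold (adjusted p = 0.000528). Col3a1 fell 1.51-fold (adjusted p = 2.07e-05), from 12.40 ± 0.081 at day 28 to 11.81 ± 0.034 at day 60 (mean ± SD, 4 and 3 pools). Col27a1 fell 1.42-fold, Col5a3 1.37-fold, Col5a1 1.3-fold, Col1a1 1.25-fold and Col1a2 1.24-fold. With centred arrays the calls of Col1a1 (adjusted p = 0.0644) and Col1a2 (adjusted p = 0.0577) ended, and that of Col5a1 ended without replicate 2 of day 60 (adjusted p = 0.0686). Col11a2 fell by 0.32 ± 0.11 (adjusted p = 0.0482), a call that ended without any 1 of 11 pools, with adjusted p up to 0.134, and with centred arrays (0.108) or quantile normalization (0.0568). Col11a1 rose again, 1.42-fold (adjusted p = 0.00155), to a mean of 7.10 ± 0.099 that differed by 0.05 from day 7 (adjusted p = 0.737).

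In the basement membrane class Col15a1 fell back 1.57-fold (adjusted p = 0.000624), to day 60 values that overlapped those of day 7 and day 18. Col4a5 fell 1.36-fold (adjusted p = 0.00744), Col7a1 1.26-fold (adjusted p = 0.00598) and Col4a4 1.23-fold (adjusted p = 0.0327). The Col4a4 call ended with centred arrays (adjusted p = 0.136), with every cluster tested (0.0633), with day 28 and day 60 fitted alone (0.0517) and without replicate 1, 3 or 4 of day 28 (0.0819, 0.0588 and 0.0579) or replicate 1 or 2 of day 60 (0.0927 and 0.115). Col4a1, Col4a2, Col4a3 and Col18a1 did not pass, with differences of -0.25, 0.04, -0.19 and -0.27.

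Of the other types, Col12a1 rose 2.17-fold (adjusted p = 1.11e-05) and Col8a1 rose 1.69-fold (adjusted p = 0.000985), with no overlap between the ages for either gene. Col8a1 read 5.24, 4.93, 5.17 and 5.18 at day 28 and 6.05, 5.82 and 5.77 at day 60. Col6a6 fell 1.68-fold and Col16a1 1.62-fold (adjusted p = 0.000698 and 0.000131). Col13a1 fell 1.3-fold (adjusted p = 0.0249). The Col13a1 call ended with centred arrays (adjusted p = 0.0766), with every cluster tested (0.0516) and without replicate 1 or 3 of day 28 (0.0671 and 0.0611) or replicate 1 or 3 of day 60 (0.0854 and 0.0619). Col20a1 fell by 0.34 ± 0.12 (adjusted p = 0.0448), a call that ended without any 1 of 9 pools, with adjusted p up to 0.142, and with centred arrays (0.11) or quantile normalization (0.0543).

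Of the 10 fibroblast markers 3 rose (Dcn 0.22, Mfap5 0.90, Pi16 0.82) and 3 fell (Tcf21 -1.13, Thy1 -0.64, Lum -0.35) at this step. Their summed level of 13.63 to 13.68 at day 60 overlapped that of 13.62 to 13.68 at day 28. Dcn adds most to this sum at both ages, so the sum is no measure of fibroblast number. Smooth muscle and endothelial markers had 0 of 8 and 0 of 7 called (limma; 1 and 1, both lower, at an unadjusted p under 0.05). Of 6 markers of haploid germ cells 5 rose, with sums of 7.20 to 7.50 at day 28 and 10.65 to 11.11 at day 60. Tnp1, Tnp2, Odf1 and Smcp were at or under background at day 28. Macrophage markers rose in 3 of 6, with sums of 9.93 to 10.12 and then 10.41 to 10.55, and adipocyte markers rose in 3 of 5. The part of germ cells, macrophages and adipocytes in the collagen differences was not tested.

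Over the whole span from day 7 to day 60, which shares its pools with the steps above, 17 of 36 collagens were lower and 6 higher, where 27.6% of all genes were lower and 21.7% higher (49.2% in either direction). Col6a6 was 5.32-fold lower (adjusted p = 1.54e-09), Col5a2 3.91-fold (adjusted p = 5.98e-09) and Col5a1 2.55-fold. Col14a1 and Col20a1 were each 2.42-fold lower, Col16a1 2.14-fold and Col4a1 2.12-fold (adjusted p = 3.61e-06). Col1a1 was 1.57-fold lower, Col1a2 1.55-fold and Col3a1 1.92-fold; these signals lie near the top of the array's scale, and their folds are not ranked against those of dimmer genes. Col13a1 was 4.53-fold higher (adjusted p = 1.3e-09), Col4a3 1.68-fold (adjusted p = 0.00011), Col18a1 1.48-fold and Col8a1 1.43-fold. Col12a1 was 1.3-fold higher (adjusted p = 0.0202). Its call ended with the table quantile normalized again (adjusted p = 0.0697) and without replicate 2 of day 7 (0.0729) or replicate 2 or 3 of day 60 (0.0619 and 0.0562). Col10a1, of growth plate cartilage, passed as well (0.36 ± 0.13, adjusted p = 0.0284), but its means at both ages were not above background, and the call ended with quantile normalization (adjusted p = 0.0624) and without replicate 1 or 3 of day 7 or replicate 1 or 2 of day 60 (0.0609 to 0.116).

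Col2a1, Col9a1, Col9a2 and Col10a1, collagens best known from cartilage, passed the test at none of the 3 steps. Of the type XI chains, also of cartilage fibrils, Col11a1 was called at all 3 steps. Col11a2 was called from day 28 to day 60 only (adjusted p = 0.0482), a call that many single pools carried, as given above. In the F test over the 4 ages Col11a2 did not pass (limma, adjusted p = 0.11). Of 7 measured markers of cartilage and bone Acan and Matn3 were not above background at any age, and Sox9 was not at day 60. Ibsp fell from day 7 to day 18 (-0.58, adjusted p = 0.0249), and Sox9 was lower at day 60 than at day 7 (-0.37, adjusted p = 0.0296). The summed level of the list was 7.88 to 8.04 in the day 7 pools, 7.84 to 7.89 in those of day 18, 7.86 to 8.20 in those of day 28 and 7.87 to 7.90 in those of day 60.

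Chains that join in 1 molecule were then set against each other within each pool, where a common scaling cancels. For 8 such pairs the difference between the chains was tested over the 4 ages with an exact permutation test of the F statistic over 4204200 assignments of the 14 pools, adjusted over the 8 pairs. A change in that difference shows that the signals of the chains changed unequally. Near background, as for Col8a1, or near the top of the scale, as for Col1a1, signals may not follow RNA evenly. The test was passed by 5 pairs.

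The type I pair did not pass. Col1a1 minus Col1a2 was 0.23 ± 0.036 in the day 7 pools, 0.19 ± 0.031 in those of day 18, 0.21 ± 0.036 in those of day 28 and 0.21 ± 0.043 in those of day 60 (log2, mean ± SD; exact p = 0.611, adjusted p = 0.675). Col6a2 minus Col6a3 (1.44 to 1.65, exact p = 0.392) and Col9a1 minus Col9a2 (-1.13 to -0.88, exact p = 0.675) did not pass either, with wider spreads of 0.054 to 0.22 and 0.12 to 0.34. Col9a1 lay near background, with means of 4.89 to 5.24.

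The difference between the type V chains narrowed: Col5a1 minus Col5a2 went from -0.95 ± 0.036 at day 7 to -0.34 ± 0.18 at day 60 (exact p = 0.000108, adjusted p = 0.000868). This holds for the brighter Col5a1 cluster, whose mean went from 9.11 to 7.76, while Col5a2 went from 10.07 to 8.10. The second Col5a1 cluster went from 8.45 to 6.85, and its difference from Col5a2 was not tested. Both head-to-head type IV pairs changed too. Col4a3 minus Col4a4 went from -0.65 ± 0.17 at day 7 through -0.26 ± 0.073 and -0.10 ± 0.17 to 0.00 ± 0.038 at day 60 (exact p = 0.000243, adjusted p = 0.00088). Col4a1 minus Col4a2 was 0.12 ± 0.046 in the day 7 pools, 0.31 ± 0.19 in those of day 18, 0.10 ± 0.16 in those of day 28 and -0.20 ± 0.061 in those of day 60 (exact p = 0.00401, adjusted p = 0.00641). All 3 day 60 pools were below 0 for that pair.

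Col11a1 minus Col11a2 was 1.19 ± 0.17 in the day 7 pools, 0.24 ± 0.13 in those of day 18, 0.56 ± 0.34 in those of day 28 and 1.37 ± 0.12 in those of day 60 (exact p = 0.00033, adjusted p = 0.00088). Col8a1 minus Col8a2 was -2.99 ± 0.21 at day 7 and -1.63 ± 0.30 at day 60 (exact p = 0.00262, adjusted p = 0.00523). At day 18 Col8a1 was above background in 2 of 4 pools.

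**Figure D4:**
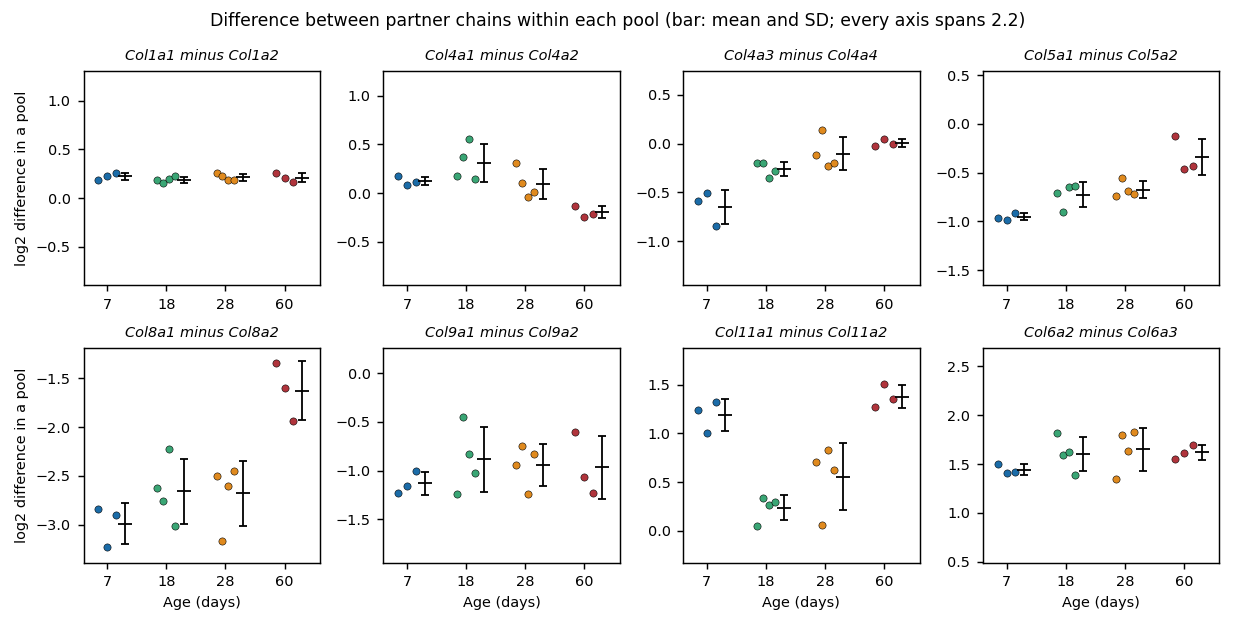
Each panel plots the log2 difference between a pair of partner chains in every pool against age in days, with mean and SD; every axis spans 2.2 log2 units. Col1a1 minus Col1a2 stays at 0.19 to 0.23 on average, while Col11a1 minus Col11a2 is lowest at day 18 and Col8a1 minus Col8a2 is highest at day 60.

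Genes that act on collagen were taken from a list of 48 genes, of which 43 were measured. From day 7 to day 18, 30 of them fell (69.8%, against 20.7% of all genes) and 2 rose (4.65% against 17.4%), with a median of -0.69 against 0.01. Enzymes and chaperones of modification and folding fell in 16 of 19. The largest of these was P4ha3, a subunit of prolyl 4-hydroxylase, which stabilises the helix, and it went from 9.98 ± 0.051 to 6.88 ± 0.25 (mean ± SD, 3 and 4 pools; adjusted p = 1.56e-09). Creb3l1, a transcription factor of collagen secretion, fell by 1.41 ± 0.098. Of the crosslinking enzymes 5 of 6 fell and 0 rose (limma; 0 also at an unadjusted p under 0.05), with Loxl1, a lysyl oxidase, lower by 2.89-fold (adjusted p = 1.2e-09). Secretion and propeptide cleavage genes fell in 5 of 9, and 4 of 9 receptors fell. The 2 that rose were Tmem38b, an ion channel of the endoplasmic reticulum, and Ddr1, a collagen receptor of epithelia, which rose by 0.29 ± 0.067 and 0.53 ± 0.080.

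From day 18 to day 28, 8 of the 43 rose (18.6%, against 10.5% of all genes) and 4 fell (9.3% against 14.3%), so that the called share in either direction was near the 24.7% of all genes. The largest rises were those of Tmem38b (0.83 ± 0.062), Tll1, a protease that trims procollagen (0.54 ± 0.13), and the integrin Itga1 (0.43 ± 0.14). P4ha3 fell by a further 0.84 ± 0.15, Plod2, a lysyl hydroxylase, by 0.50 ± 0.071 and Ddr1 by 0.42 ± 0.074. From day 28 to day 60, 8 rose (18.6%, against 13.8% of all genes) and 9 fell (20.9% against 11.2%). Serpinh1, the chaperone specific to collagen, fell by 0.74 ± 0.090 (adjusted p = 3.82e-05), P3h3 by 0.41 ± 0.091 and Fkbp10 by 0.41 ± 0.099. Tmem38b rose by 0.92 ± 0.067, Itga1 by 0.64 ± 0.15 and P3h2, a prolyl 3-hydroxylase, by 0.61 ± 0.13.

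Over the whole span 26 of the 43 were lower at day 60 (60.5%, against 27.6% of all genes) and 3 higher (6.98% against 21.7%). P4ha3 fell by 4.05 ± 0.17 (adjusted p = 4.6e-11), Fkbp10, a prolyl isomerase, by 1.83 ± 0.11 and P3h4 by 1.70 ± 0.093. Tmem38b was higher by 2.03 ± 0.072 and Ddr1 by 0.47 ± 0.086. Lair1, an inhibitory collagen receptor of leukocytes, passed as well (0.68 ± 0.23), but was not above background at any age. Tmem38b was higher at every step while most genes of its group were lower or not called.

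**Figure D5:**
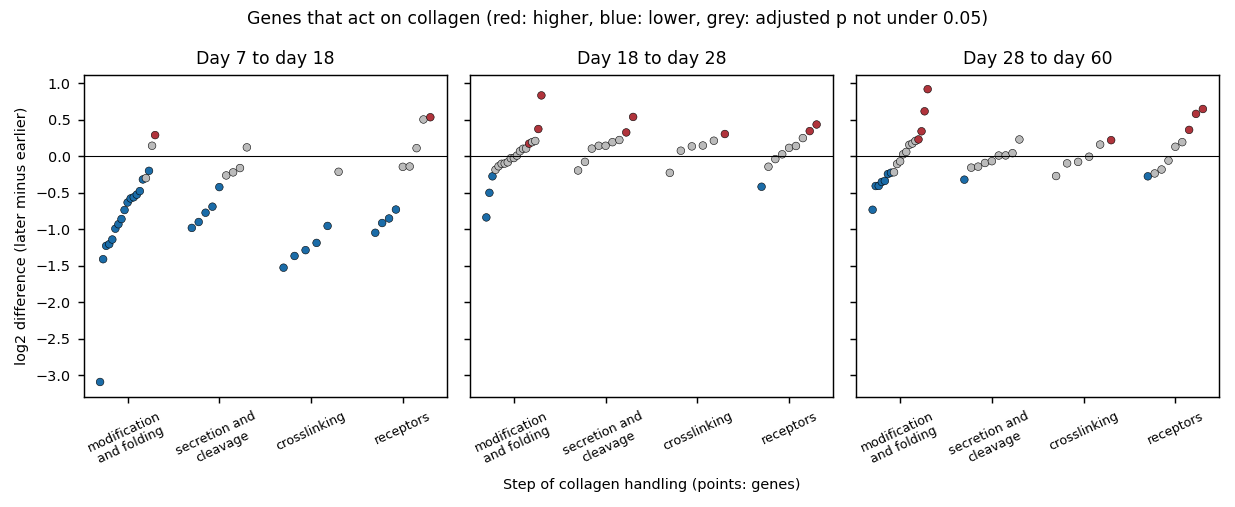
Points are genes that act on collagen, grouped by role along the x axis, with the log2 difference (later minus earlier age) on the y axis in a panel for each step. From day 7 to day 18 most points are blue (lower), with P4ha3 at -3.10, and in the later steps most lie near 0.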

How the data were processed

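Log2 expression values per transcript cluster were deposited for 14 RatGene 2.0 ST arrays, 1 per pool; the submitters' processing notes name RMA and the Transcriptome Analysis Console, without versions. RMA corrects background, equalises the arrays' distributions and summarises probes, so a shift common to all genes is not seen. Array medians were 5.21 to 5.42. Of 36685 clusters, 18511 had 1 symbol, 575 had several and the others had none in the platform annotation; per gene the cluster with the highest mean was kept, giving 18166 genes.

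Differences between ages were tested with limma 3.58.1 (R 4.3.3; lmFit and eBayes, a mean per age, all 14 arrays), adjusted over all 18166 genes by Benjamini-Hochberg with a threshold of 0.05. The code was tested on simulated data. Values in every pool are given for the members of each class with the highest means or the largest called changes; other genes are named by their largest called changes in fixed lists. Members, lists and tests were chosen with earlier results of these data known. The Col6a2 and Col6a3 pair was added after the data were seen. All 36 collagens matched RefSeq by gene identifier. Array number limits the precision.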

Additional observations from a re-analysis of the deposited data

Results flagged for a closer look

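In 72 sets of 4 pools (36 collagens at day 18 and day 28), 2 held a pool far from the others, by a gap of more than 0.829 of the range. Chance flags about 1 set in 20. Col20a1 read 5.17 in replicate 3 of day 28, against 5.56 to 5.58 in the other day 28 pools. Col26a1 read 4.22 in the same pool, against 4.35 to 4.36, all under the background level. Replicate 2 of day 28, which stood apart over all genes, held 0 of these values.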

How the results depend on the processing

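No collagen difference that was called changed direction under 9 other settings or with each of the 14 pools left out in turn. For most of these the direction was fixed, because the age means compared stayed the same. They could move with quantile normalization, centred arrays, the replicate block or a pool of a compared age left out. For Col5a1 they could also move with the mean of its clusters. Of the 72 called differences, 28 lost the call under at least 1 of the 9 settings or with a pool left out, 10 of them without a single pool. Of the differences not called, 14 gained a call under at least 1 of these alternatives. Col18a1 from day 28 to day 60 was 1 of them (limma, adjusted p = 0.0672, and 0.0112 with quantile normalization). Another was Col23a1 from day 7 to day 18 (0.0572, and 0.0284 with an intensity trend and robust fit). With a minimum fold of 1.5 the counts of collagens went from 4 to 2 higher and from 19 to 13 lower (day 7 to day 18). The falls lost there were those of Col1a1, Col1a2, Col3a1, Col5a3, Col8a1 and Col16a1. The counts went from 6 to 3 higher and from 1 to 0 lower (day 18 to day 28). They went from 3 to 2 higher and from 16 to 5 lower (day 28 to day 60). From day 7 to day 60 they went from 6 to 2 higher and stayed at 17 lower. With arrays centred on their medians the falls from day 28 to day 60 went from 16 to 10. With pools left out, the counts ranged from 3 to 6 higher and 18 to 19 lower (day 7 to day 18), 5 to 7 and 1 (day 18 to day 28), 3 to 4 and 12 to 16 (day 28 to day 60), 4 to 7 and 17 to 18 (day 7 to day 60), and 27 to 30 for any age. Without replicate 2 of day 28, 3 calls ended: Col4a3 from day 18 to day 28 (adjusted p = 0.0513), and Col11a2 (0.104) and Col20a1 (0.0935) from day 28 to day 60. The cause was not tested. With the replicate number as a block 13 collagens fell from day 28 to day 60, without Col4a4 (adjusted p = 0.0842), Col20a1 (0.106) and Col11a2 (0.0538), and the other counts were as without it. Deviations of same-numbered pools correlated at -0.143 to 0.046 over 19 pairs, so the numbers were not taken as a pairing. No partner-chain pair changed its side of the threshold with quantile normalization or with a pool left out. For Col1a1 and Col1a2, however, the adjusted p of the exact test went from 0.675 to 0.0638 with quantile normalization.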

Other observations

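The second cluster of Col5a1 read 8.45 ± 0.12 in the day 7 pools, 7.33 ± 0.068 in those of day 18, 7.37 ± 0.18 in those of day 28 and 6.85 ± 0.066 in those of day 60 (mean ± SD, 3 or 4 pools). The background level came to 4.92 when olfactory receptor genes with newer symbols were added, for 1343 genes in all; this set was chosen after seeing the data.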
